A study of Mus musculus with 4 samples.

Results

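Focal CHD8 sites are places where both replicate ChIP libraries had a short peak and the highest points of the peaks fell together. CHD8 remodels chromatin with energy from ATP: its paired chromodomains belong to a class that binds histone tails, and its helicase-like motor moves nucleosomes. It is known as a repressor of p53 and beta-catenin target genes and as a gene mutated in autism, and it often sits at active promoters. A peak caller draws a short peak where few neighbouring positions pass its threshold, and a wide one where enrichment extends or is strong.

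The members were chosen by the width, overlap and summit distance of their peaks. Each is an autosomal peak of each replicate (chromosomes 1 to 19), with the peaks overlapping by at least 1 bp, each under 400 bp wide, with summits at most 50 bp apart. The rule gave 856 focal pairs among 20886 overlapping autosomal pairs, which is 4.10% (95% Wilson interval 3.84 to 4.38). Each pair used a different peak of each list, so the members made up 3.83% of the 22323 autosomal peaks of replicate 1 and 2.81% of the 30491 of replicate 2. Fold enrichment and significance come from the same peak calls as these values, so all of them are given as descriptions without a test.

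The cells were mouse embryonic stem cells on gelatin in 2i medium, which holds them in naive pluripotency with MEK and GSK3 inhibitors. All of them carried a C-terminal 3xFLAG tag on both endogenous copies of Chd8. The 4 samples were 2 anti-FLAG M2 ChIP samples and 2 inputs without antibody, and only the ChIP samples came with a peak list. Nothing in the labels says whether the replicates were separate cultures, and without a ChIP of untagged cells, peaks the antibody gives on its own cannot be told apart. The ChIP libraries held a mean of 3.44 and 3.56 reads per 200-bp window, values solved from the deposited folds and p-values rather than counted. The lists are on the mouse build mm9, positions below are 1-based, and no gene annotation or sequence of that build was used here, so sites are named by position.

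Short peaks were common in each list, but only a small part of them met a short peak in the other. Of the 9098 autosomal replicate 1 peaks under 400 bp, 2168 (23.8%) overlapped a replicate 2 peak that was also under 400 bp. A further 4751 (52.2%) overlapped only wider replicate 2 peaks, and 2179 (24.0%) overlapped none. Of the 11874 short replicate 2 peaks, 2180 (18.4%) overlapped a short replicate 1 peak, 1240 (10.4%) only wider ones, and 8454 (71.2%) none. A short peak of replicate 1 thus most often lay under a wider peak of replicate 2, while a short peak of replicate 2 most often had no partner. The lists hold 2192 pairs of short peaks, and 856 of these, 39.1% (37.0 to 41.1), had summits within 50 bp. Among pairs with at least 1 peak of 400 bp or more, 4998 of 18694 (26.7%) had summits that close. The width of overlapping peaks bounds how far apart their summits can lie. The largest distance observed was 539 bp in short pairs and 4232 bp in wide ones. The difference between these shares is therefore no result about how well summits are reproduced.

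The widths of focal peaks spread over the range the rule allows, from the shortest peak of the lists, 200 bp, up to 400 bp. Their median width was 269 bp in replicate 1 and 294 bp in replicate 2, with quartiles of 227 and 318 bp and of 243 and 349 bp. The replicate 2 peak was the wider one in 527 pairs and the replicate 1 peak in 320. A peak of exactly 200 bp was part of 116 pairs. The widths of a pair had a Spearman's rho of 0.16 across the 856 pairs, where the rule restricts both widths, against 0.53 across all overlapping pairs.

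The summits of focal pairs lay a median of 21.5 bp apart, and 17 pairs had the same summit base in both replicates. The distance was at most 10 bp in 248 pairs (29.0%) and at most 20 bp in 405 (47.3%). The signed shift from replicate 1 to replicate 2 had a median of 0 bp and quartiles of -21 and 22, so neither replicate lay to one side. Peak edges, which the rule does not limit as it does the summits, had a median absolute shift of 41 bp at the start and 40 bp at the end. The signed medians of these edge shifts were -5 bp and 11 bp. The summit sat between 25% and 75% of the peak's width in 88.1% of the replicate 1 peaks and 88.4% of the replicate 2 peaks. In short pairs with summits farther apart these shares were 81.0% and 82.0%.

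**Figure D1:**
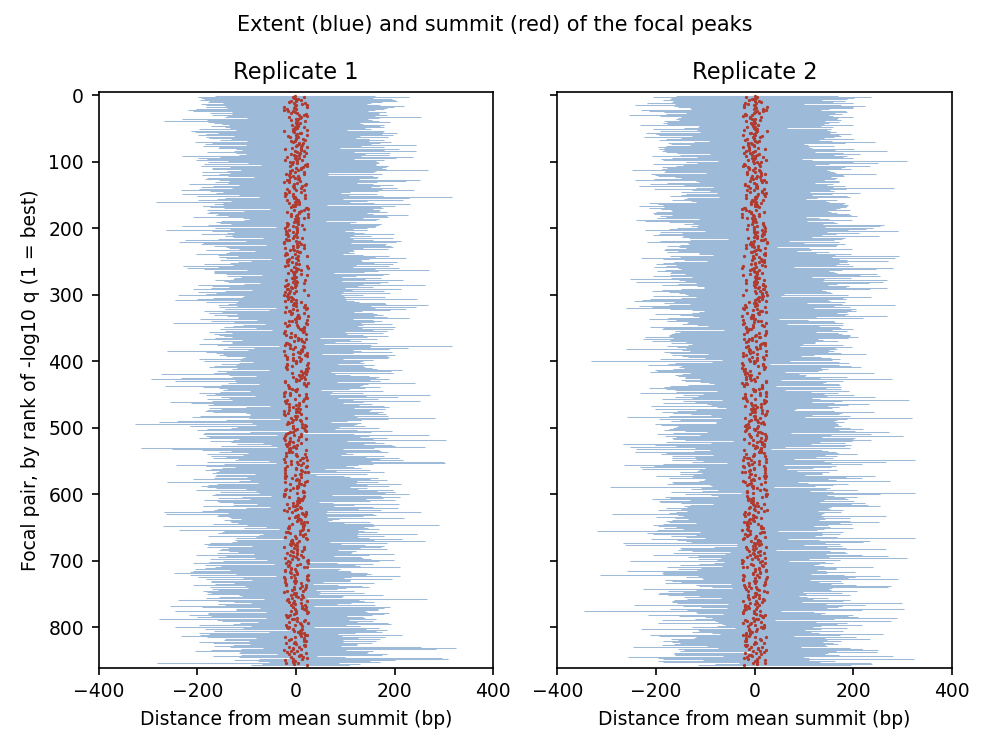
Each horizontal blue line is the extent of a focal peak in replicate 1 (left) or replicate 2 (right), in bp from the mean of both summits, and each red dot is that replicate's summit. The 856 pairs are ordered by rank of −log10 q, best at the top, and the summits form a band of at most 25 bp to each side in both panels.

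Focal sites were weak to moderate CHD8 sites in both replicates. The authors' fold enrichment, the ratio of the summit to the caller's local background, had a median of 3.83 in replicate 1 and 4.31 in replicate 2, or 4.07 ± 0.340 (SD, n = 2). Over all overlapping pairs the medians were 4.73 and 5.92. A fold of replicate 1 cannot be set directly against one of replicate 2, since the caller adds 1 to summit and background and the replicates were scaled to different depths. Means and SDs of folds over the 2 replicates, here and below, thus include this difference in scale. Read numbers at the summit were therefore solved from each peak's fold and p-value. They had a median of 17 in replicate 1 (range 12 to 67) and 21.5 in replicate 2 (range 14 to 84), so counting error alone was 24.3% and 21.6% of the median.

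Divided by each library's mean number of reads per 200-bp window, these reads give a summit level on one scale for both replicates. The median level was 4.94 times the library mean in replicate 1 and 6.03 times in replicate 2, with quartiles of 4.65 and 5.82 and of 5.33 and 7.01. Wide pairs with coinciding summits had medians of 7.85 and 10.4. Short pairs with summits over 50 bp apart had 4.65 and 5.61, close to the focal pairs. By −log10 q, 11 focal pairs stood in the best 20% of the replicate 1 list, 16 in that of replicate 2, and 7 in both. At the other end, 198 and 149 focal pairs were in the weakest 20% of their list.

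Within the members, width and strength went together loosely. Spearman's rho of width and summit reads across the 856 pairs was 0.37 in replicate 1 and 0.38 in replicate 2, against 0.77 and 0.74 over all overlapping pairs. The limit of 400 bp narrows both ranges. In the 119 pairs whose wider peak was under 250 bp, the median summit held 16 and 19 reads. In the 289 pairs whose wider peak was 350 bp or more it held 18 and 23.

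Values just inside and just outside the limits of the rule were as follows. Short pairs with summits 41 to 50 bp apart (145 pairs) had median folds of 3.83 and 4.05, and those 51 to 60 bp apart (121 pairs) had 3.83 and 4.25. Coinciding pairs whose wider peak measured 380 to 399 bp (127 pairs) had median folds of 4.28 and 4.51, and those with 400 to 419 bp (111 pairs) had 4.10 and 4.91. The median ratio of summit levels, replicate 2 over replicate 1, was 1.16 and 1.18 on the sides of the summit limit and 1.16 and 1.30 on the sides of the width limit.

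Focal sites were ranked by −log10 q, each by the worse of its rank percentiles in the lists. The first lay on chromosome 1 at 20476870 to 20477204. It had fold enrichments of 9.01 and 10.96 in replicates 1 and 2, a mean of 9.98 ± 1.38 (SD, n = 2), from 39 and 53 reads. Its summits were 2 bp apart, and another peak, 480 bp wide, lay 280 bp away. The next, on chromosome 10 at 27545411 to 27545809, had folds of 10.1 and 8.94 from 44 and 43 reads, with summits 11 bp apart and the nearest other peak 161 kb away. These were the focal pairs with a fold of 8 or more in both replicates, 2 of 856. The third, on chromosome 6 at 43575450 to 43575842, had folds of 7.88 and 9.35 from 34 and 45 reads, and its peaks were both 386 bp wide. At each of these 3 sites the control background was at the genome-wide value in replicates 1 and 2 alike.

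One site had the highest fold of all focal sites in replicate 1, 12.4, but not in replicate 2, where its fold was 7.73. On chromosome 7 at 68119060 to 68119441, the summit level was 15.7 (exact Poisson interval 11.8 to 20.5) from 54 reads in replicate 1 and 10.4 (7.31 to 14.3) from 37 reads in replicate 2. In the whole lists it ranked 1098 in replicate 1 and 5466 in replicate 2, although its summits lay 1 bp apart. A second site on the same chromosome, at 10910818 to 10911191, had identical summits and also the higher level in replicate 1, 12.5 (9.05 to 16.8) from 43 reads against 9.26 (6.37 to 13) from 33. The nearest other peaks of these sites lay 207 kb and 169 kb away. The Poisson intervals of the levels overlapped at both sites.

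The other 5 of the 10 best-ranked focal sites had mean folds of 6.69 to 7.93. That on chromosome 12 at 20318271 to 20318664 had 34 and 38 reads, and a peak of 269 bp lay 129 bp from it. The chromosome 17 site at 22451852 to 22452210 held more reads in replicate 2, with 29 and 40, as did that on chromosome 2 at 67113397 to 67113751, with 28 and 37. The site on chromosome 8 at 44158260 to 44158544 was the shortest of the 10, with peaks of 264 and 254 bp and 37 reads in each replicate. The site on chromosome 13 at 23666044 to 23666440 held 36 reads in each replicate, 255 bp from a peak of 991 bp. Across all 10, summits lay 0 to 34 bp apart, folds ran from 6.49 to 12.4 in replicate 1 and from 6.86 to 10.96 in replicate 2, and the level was higher in replicate 2 at 5. The nearest other peak was 129 bp away at the closest and 207 kb at the farthest.

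The weakest focal sites rested on few reads. The last by rank, on chromosome 5 at 23536294 to 23536604, had folds of 2.66 (exact Poisson interval 1.48 to 4.50) from 12 reads and 3.30 (1.97 to 5.27) from 15. The site on chromosome 2 at 154724288 to 154724606 had 12 and 20 reads. On chromosome 3 at 95034619 to 95035043, with 14 reads in each replicate, the peaks overlapped by only 9 bp while their summits lay 41 bp apart, near the facing edges. Another peak overlapped this pair. Intervals here cover counting error only.

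Focal summits were higher in replicate 2 than in replicate 1, as were overlapping pairs in general, but by a smaller factor. The level was higher in replicate 2 at 692 of 856 focal pairs, 80.8% (78.1 to 83.3), and at 87.6% (87.2 to 88.0) of all overlapping pairs. The median ratio of replicate 2 to replicate 1 was 1.18 (order-statistic 95% interval over pairs 1.16 to 1.19) at focal pairs and 1.17 (1.16 to 1.19) at short pairs with summits apart. It was 1.25 (1.24 to 1.25) at wide pairs with coinciding summits and 1.31 (1.30 to 1.31) at wide pairs with summits apart. The focal ratio was thus like that of other short pairs. The log2 ratio had an SD of 0.30 at focal pairs, where independent counts of these sizes would give 0.47. The values were 0.30 against 0.48 at short pairs with summits apart and 0.29 against 0.37 at wide pairs with coinciding summits. Wide pairs with summits apart had 0.45 against 0.41. The rule limits the widths of both peaks of a focal pair, so the focal SD does not measure agreement beyond counting.

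**Figure D2:**
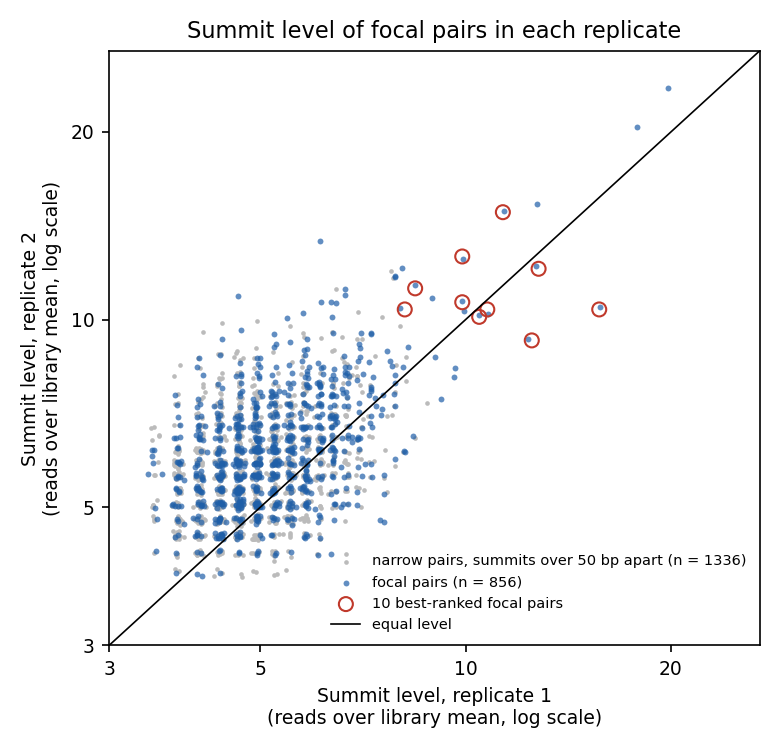
Summit level in replicate 1 (x axis) and replicate 2 (y axis), both on log scales, as summit reads over the library's mean per 200-bp window, for the 856 focal pairs (blue), the 1336 short pairs with summits over 50 bp apart (grey) and the 10 best-ranked focal pairs (red circles). Points other than the circles are shifted slightly at random because many share the same read numbers, and most blue points, 80.8%, lie above the line of equal level.

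No focal pair passed the test of a difference between the libraries. Summit reads of the replicates were compared by a 2-sided exact binomial test around the median ratio of all 20886 overlapping pairs, 1.27, with Benjamini-Hochberg adjustment over all of them. Of the focal pairs 0 passed an adjusted p of 0.05, where 251 of all pairs, 1.2%, did. At an unadjusted p under 0.05 there were 7 focal pairs, 0.818%, 2 higher and 5 lower in replicate 2 than that ratio, against 5.19% of all pairs. The ratios ran from 0.631 to 2.35 at focal pairs, from 0.540 to 2.69 at wide pairs with coinciding summits and from 0.143 to 10.8 at wide pairs with summits apart. Around the plain depth ratio, 0 focal pairs passed the adjusted threshold against 2.63% of all pairs, and 13 passed the unadjusted one against 11.9%, all 13 higher in replicate 2. The test compares 2 libraries, and with medians of 17 and 21.5 reads it could not detect small differences. The rule also asks for a called peak under 400 bp in both libraries, which limits how unequal a focal pair can be. Quartiles of summit reads were 16 and 20 and 19 and 25 at focal pairs, against 18 and 30 and 24 and 42 over all pairs. The smaller shares of focal pairs passing are therefore no result about how well these sites replicate.

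The most unequal focal pairs ranged from weak to strong peaks in a replicate. The chromosome 7 site at 68119060 had the smallest exact binomial p of the focal pairs, 0.00204, which was 0.131 after Benjamini-Hochberg adjustment, with a ratio of 0.661. The highest ratio, 2.35, was on chromosome 17 at 13982041 to 13982372, from 16 and 39 reads and folds of 3.83 and 8.14. The next, 2.21, was on chromosome 9 at 96388467 to 96388863, from 21 and 48 reads, where the control background was 1.97 times the genome-wide value in replicate 1 and at that value in replicate 2. The lowest ratio, 0.631, occurred on chromosome 13 at 6884024 to 6884368 and on chromosome 10 at 93768350 to 93768686, each with 26 and 17 reads. At both of these the replicate 2 peak was also the narrower one, 232 against 345 bp and 206 against 337 bp. These pairs were picked as extremes of the ratio and carry no test of their own.

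Agreement in strength from site to site was lower at short pairs than at wide ones, and lower where summits were apart. Spearman's rho of the summit reads of the replicates was 0.43 across the 856 focal pairs and 0.25 across the 1336 short pairs with summits apart. It was 0.89 across wide pairs with coinciding summits and 0.59 across wide pairs with summits apart. These are correlations across sites of the same libraries, and the short pairs span a narrow range of reads.

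Focal sites occurred both beside other peaks and far from any. The gap from a focal pair to the nearest other peak of either list had a median of 3.11 kb (order-statistic interval 1.77 to 4.06) and quartiles of 0.197 and 31.0 kb. At the 115 focal pairs in the higher-scoring 50% of both lists, the median gap to any peak of the whole lists was 9.58 kb. Wide pairs with coinciding summits had a similar median gap, 3.15 kb (2.77 to 3.58), and all overlapping pairs had 0.572 kb (0.505 to 0.682). Another peak lay within 1 kb of 368 focal pairs (43.0%), within 2 kb of 402 (47.0%) and within 100 kb of 758 (88.6%). The share within 2 kb was 51.0% of short pairs with summits apart. It was 45.7% of wide pairs with coinciding summits and 60.4% of wide pairs with summits apart. Of the 402 focal pairs with a neighbour within 2 kb, the neighbour was 400 bp or wider in 213 (53.0%). It had a higher −log10 q than both focal peaks in 185 (46.0%). In 277 (68.9%) it was a peak of replicate 2, which had 30491 autosomal peaks against 22323 in replicate 1. The share of such neighbours of 400 bp or more was 49.0% at short pairs with summits apart. It was 43.1% at wide pairs with coinciding summits and 52.7% at wide pairs with summits apart. Only 16 focal pairs (1.87%) overlapped a further peak. Of short pairs with summits apart, 9.06% (7.63 to 10.7) overlapped or adjoined one, and their median gap was 1.59 kb (1.04 to 2.45). Of wide pairs with coinciding summits, 17.7% overlapped or adjoined a further peak. The peaks of a focal pair overlapped each other by a median of 227 bp, against 189 bp in short pairs with summits apart. Whether this or the summit limit of the rule bears on the share with a further peak was not tested.

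**Figure D3:**
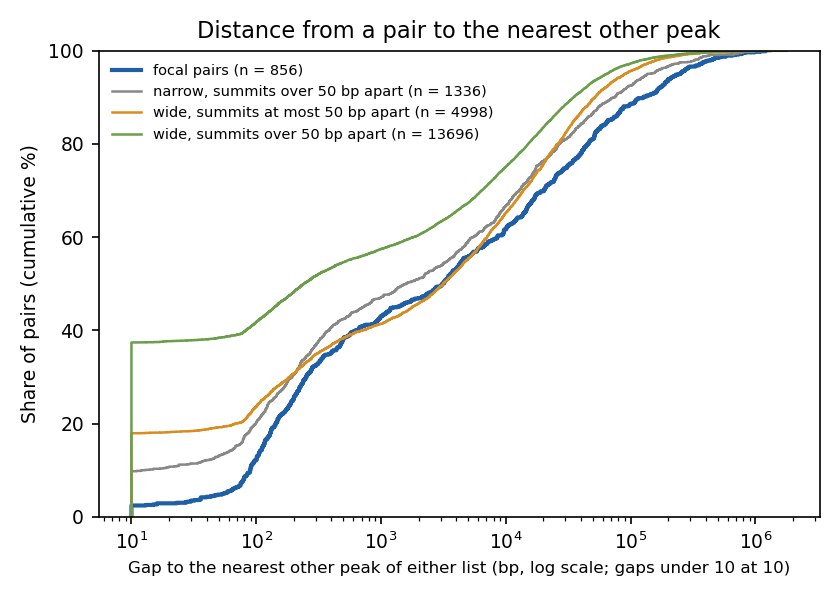
Cumulative share of pairs (y axis, %) against the gap to the nearest other peak of either list (x axis, bp, log scale), for focal pairs and the 3 other classes of overlapping pairs. The focal line starts lowest, at 1.87% overlapping another peak, and 47.0% of focal pairs have a neighbour within 2 kb.

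Focal sites far from other peaks had summit levels like those of sites with close neighbours. The 98 focal pairs with no other peak within 100 kb had median levels of 5.38 and 6.17, and the 402 with a neighbour within 2 kb had 4.94 and 6.17. The control background was more often raised near other peaks: it exceeded the genome-wide value at 26.5% and 25.5% of the far pairs and at 44.8% and 40.5% of the near ones. Short pairs with summits apart had the same order, with 30.0% and 26.0% against 44.2% and 44.2%. Only 13 focal pairs lay more than 500 kb from any other peak.

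The best-ranked of these isolated sites was on chromosome 15 at 14098658 to 14098977, with folds of 5.18 and 5.07 from 22 and 27 reads and summits 4 bp apart. On chromosome 6 at 96247032 to 96247304, 578 kb from the next peak, the folds were 4.96 and 5.52 and the summits 1 bp apart. The most remote was a second site on chromosome 15, at 23227578 to 23227968, with 1211 kb to the next peak and folds of 6.76 and 4.91. The sites on chromosome 4 at 50875441 to 50875777 and on chromosome 12 at 37888088 to 37888447 lay 792 kb and 779 kb from other peaks. All 5 had summits within 35 bp and at least 19 reads in each replicate.

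Focal pairs with identical summits included weak and moderate sites. After the chromosome 7 site at 10910818, the best-ranked were on chromosome 15 at 38176872 to 38177187, with 26 and 27 reads, and on chromosome 8 at 50658798 to 50659193, with 21 and 38 reads. In the latter the replicate 2 control background was 2.75 times the genome-wide value. The remaining named sites lay on chromosome 2 at 170360305 to 170360636, with 26 and 25 reads, and on chromosome 10 at 41028509 to 41028774, with 19 and 22.

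Every autosome held focal pairs, from 25 on chromosomes 18 and 19 to 65 on chromosomes 2 and 4. The density was 0.356 per Mb over all autosomes (exact Poisson interval 0.333 to 0.381). It was highest on chromosome 11, with 0.505 (0.386 to 0.650), followed by chromosome 13 with 0.480 (0.362 to 0.623), and these intervals overlap. Chromosome 7 had the lowest density, 0.248 (0.174 to 0.342), although it was rich in CHD8 pairs. As a share of a chromosome's overlapping pairs, focal pairs were most frequent on chromosome 13, 56 of 925 or 6.05% (Wilson 4.69 to 7.78), and least frequent on chromosome 7, 37 of 1501 or 2.47% (1.79 to 3.38). On the pair-dense chromosome 11 the share was 3.49% (2.72 to 4.46).

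Across the 19 autosomes, the focal share was lower where overlapping pairs were denser, with Pearson's r = -0.54 and Spearman's rho = -0.66. Without chromosomes 11 and 19, the farthest from the median density, r was -0.54 and rho -0.60. The number of overlapping pairs enters both measures, so these are descriptions. Focal pairs per Mb themselves went with pair density, with r = 0.64 and rho = 0.56, and with r = 0.43 and rho = 0.41 without the same chromosomes.

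**Figure D4:**
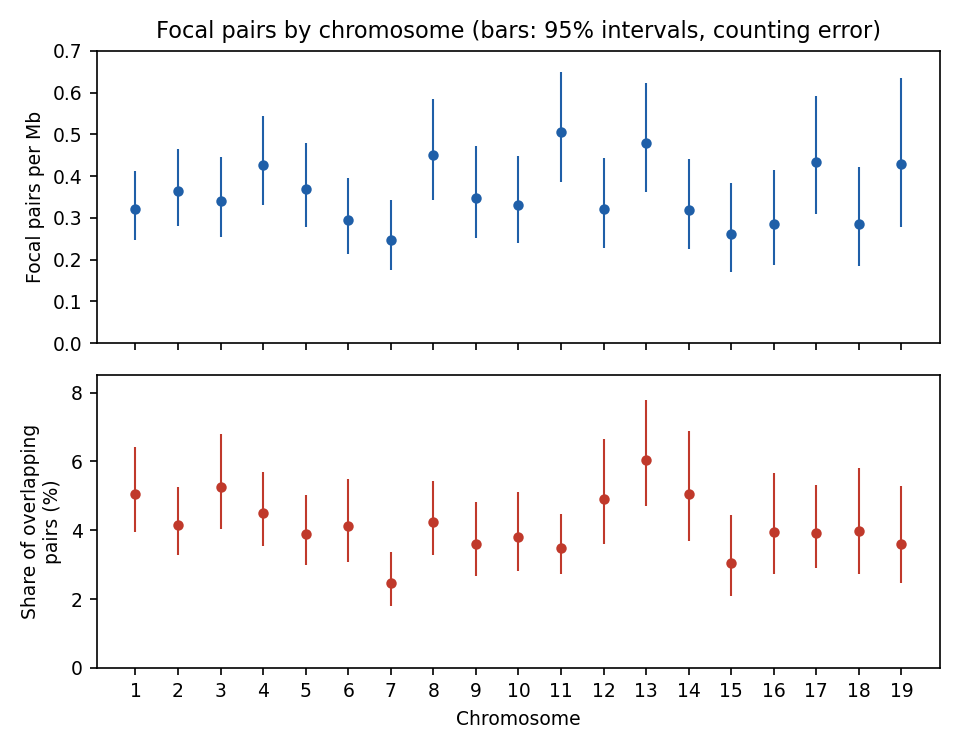
Focal pairs per Mb (upper panel, exact Poisson intervals) and the share of each chromosome's overlapping pairs that were focal (lower panel, Wilson intervals), by autosome. Chromosome 11 is highest in the upper panel at 0.505 per Mb, and chromosomes 13 and 7 are highest and lowest in the lower one at 6.05% and 2.47%.

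Most 1-Mb windows with a focal pair held only 1. Of the 1960 windows of 1 Mb with an overlapping pair, 634 held a focal pair, and 463 of these held a single one. Neighbouring focal pairs were under 2 kb apart in 11 of 837 cases and under 100 kb apart in 75 (8.96%). Whether this is more or less often than their density would give was not tested. The fullest window, on chromosome 13 from 23 to 24 Mb, held 7 focal pairs among its 86 overlapping pairs, and no other window held more than 4. Besides the site at 23666044, it held focal pairs at 23528175 to 23528528, 23646759 to 23647123, 23662929 to 23663293 and 23790204 to 23790518, with 18 to 29 reads. Each of these had another peak within 379 bp, so they lay inside a crowded stretch. Without this window, the focal share of chromosome 13 was 5.84%.

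The input controls entered these data through the caller's local background, which cannot fall below the genome-wide value. Of the focal pairs, 360 had this value in both replicates, 42.1% (38.8 to 45.4), against 36.2% (33.6 to 38.8) of short pairs with summits apart and 33.3% of wide pairs with summits apart. It exceeded the genome-wide value at 41.4% of focal pairs in replicate 1 and 38.8% in replicate 2. Coverage of 2 times the background or more in either replicate was found at 15 focal pairs, 1.75%, and in both at 6. The share among short pairs with summits apart was 1.57%, 21 of 1336. At these 15 the median folds were 2.67 and 2.90, from medians of 25 and 30 reads. The background is the divisor of the fold, so low folds here follow from the choice of these pairs.

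The 2 focal sites with the most summit reads were those with the highest control coverage. On chromosome 18 at 3005677 to 3006046, which held the first peaks listed on that chromosome, 67 and 84 reads gave folds of only 2.59 and 2.77 over controls of 7.33 and 8.25 times the background, with summits 1 bp apart. On chromosome 19 at 61275622 to 61275836, 66.1 kb from the last listed peak, 61 and 73 reads gave 2.06 and 1.97 over 8.46 and 10.2 times. On chromosome 4 at 146791282 to 146791642, 44 and 55 reads gave 2.57 and 2.69. The sites on chromosome 6 at 58546119 to 58546465 and on chromosome 4 at 145000333 to 145000715 had controls of 2.75 to 4.32 times the background. Their coverage was raised in the input as well as in the ChIP, and the part of the control in the ChIP signal was not tested.

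**Figure D5:**
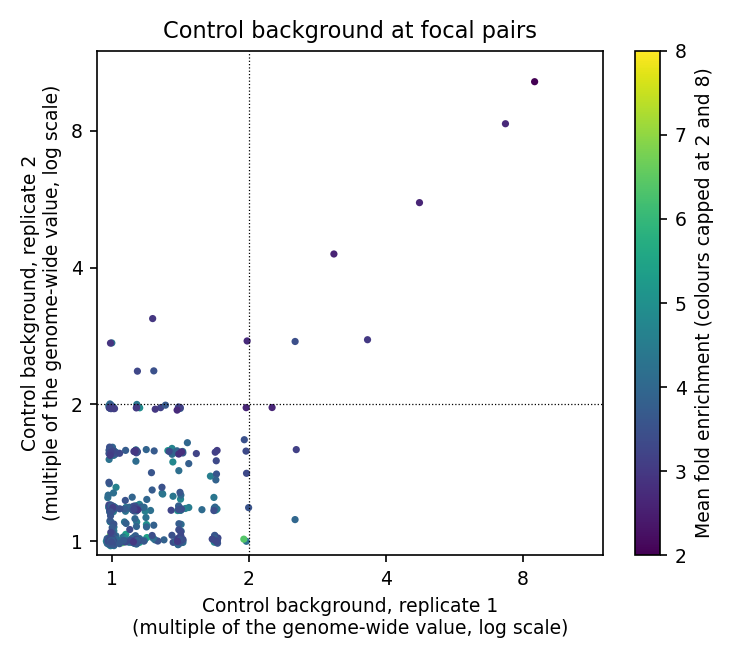
Control background at the 856 focal pairs in replicate 1 (x axis) and replicate 2 (y axis), as a multiple of the genome-wide value on log scales, coloured by mean fold enrichment, with dotted lines at 2 times and a slight random shift of the points. Most pairs sit near 1 in both, and the few beyond 4 times have mean folds under 3.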

How the data were processed

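CHD8 was mapped by anti-FLAG ChIP-seq with tagmentation on beads, per the labels' protocols. Per the submitters' processing notes, which give no parameters here, the tools were Bowtie2 2.1.0 and MACS2 2.1.1 on mm9. The authors deposited a peak list per ChIP sample, with a fold (a linear ratio over the local background), −log10 of the p-value and of the q-value, and a score, which is 10 times the −log10 q cut to a whole number. Which control served which sample is not given in the sources used here.

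Summit reads and local background were solved from each deposited fold and p-value with the MACS2 formulas, with a misfit in log10 p of at most 0.00016. In replicate 2, 78 peaks had several solutions within 0.002, and the closest was taken. The solving and the binomial test were tested on simulated data. The folds and p-values were simulated with the same formulas, so this checks the solving only, not whether the caller used them. The counts for the binomial test were simulated as independent Poisson counts. Classes of overlapping pairs were compared by medians, Wilson and exact Poisson intervals. Python 3.11.15, numpy 2.4.6, pandas 2.3.3, scipy 1.17.1 and matplotlib 3.10.9 were used.

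The members, the classes and the rule for named sites were chosen with earlier results of these data known. That rule took the 10 best-ranked focal pairs (worse of the 2 rank percentiles by −log10 q) and the 5 worst. It also took 5 each with the highest control background, identical summits and isolation, 3 at each end of the ratio, and up to 5 of the fullest window. Sequence, motifs and genes were not analysed, because the tables at hand are not of mm9.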

Additional observations from a re-analysis of the deposited data

How the results depend on the processing

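Of 58 alternatives, 44 left the value within its spread and 14 moved it. In the higher-scoring 50% of each list, 115 focal pairs remained, with a median fold of 5.35, a replicate ratio of 1.15, 33.9% above the genome-wide control background and a median gap of 9.58 kb. Summit limits of 25 and 100 bp gave 480 and 1409 pairs. Width limits of 300 and 500 bp gave 323 and 1357 pairs with replicate ratios of 1.15 and 1.21, and the lower limit a median gap of 4.46 kb. The limits set these counts by construction. Under 50% reciprocal overlap chromosome 13, not 11, was densest with 0.480 pairs per Mb, and by share of overlapping pairs it led with 6.05%. From 1 replicate at a time, the median fold was 3.83 to 4.31, the median summit reads 17 to 21.5 and the share above the control background 38.8% to 41.4%. These are the replicate values behind the reported ones, so they add no separate check. The omission of the fullest window was chosen after seeing the data. No paired analysis was possible because the inputs, which share replicate numbers with the ChIP samples, entered without a table of their own. Depth limits single sites, where the median summit carries a counting error of 24.3% in replicate 1 and 21.6% in replicate 2.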

Other observations

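The X chromosome, which the rule leaves out, held 15 pairs that met its other terms, 4.31% of its 348 overlapping pairs (Wilson 2.63 to 6.99), a share near the autosomal one of 4.10%. Their fold enrichments ran from 3.15 to 5.18 in replicate 1 and from 3.30 to 5.72 in replicate 2, and the median ratio of summit levels was 1.16. None of the 15 stood above the genome-wide control background in either replicate, while 57.9% of the autosomal focal pairs did in at least 1. This was not looked at over all 348 overlapping X pairs, so whether it is particular to the 15 is not known. The median gap of the 15 to another peak was 44.3 kb.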
